A study of Mus musculus with 109 samples.

Results

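The 10 genes described here act in the presentation of peptides on MHC class I molecules: H2-K1, B2m, Tap1, Tap2, Tapbp, Psmb9, Psmb10, Psme1, Nlrc5 and Erap1. They were chosen by name, as the rows of the count table that carry their Ensembl identifiers, and they are 10 of the 37315 genes counted. Bulk polyA RNA sequencing was performed on whole retinas of C57BL/6J (WT) mice and of Sarm1 deficient mice (Sarm1-/-, which lack the Toll/interleukin receptor domain NADase of axon degeneration), 2 to 4 months old, after an intravitreal injection of PBS, TNF, IL1A or both cytokines together (IL1A+TNF). In batch 1, all WT, 31 PBS, 8 TNF, 9 IL1A and 10 IL1A+TNF retinas were collected at day 2, 7 PBS and 6 TNF retinas at day 14, and 6 PBS and 9 TNF retinas at day 35. In batch 2, all at day 2, there were 5 WT PBS, 6 WT IL1A+TNF, 6 Sarm1-/- PBS and 6 Sarm1-/- IL1A+TNF retinas. The series held 109 retinas of 64 mice, and 45 mice gave both eyes, so a treated retina and a PBS retina often came from the same animal. Every group received an injection, so the PBS retinas are injected controls and no uninjected retina was part of the design.

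MHC class I molecules display short peptides from a cell's own proteins on its surface, where CD8 T cells read them. A heavy chain such as H2-K1 pairs with the invariant light chain B2m. Proteasomes cut the peptides, and in cells that see interferon the immunoproteasome subunits Psmb9 and Psmb10 replace the constitutive ones, while Psme1 is a subunit of the PA28 activator that caps the core. The TAP transporter, made of Tap1 and Tap2, carries peptides into the endoplasmic reticulum, Erap1 trims them there, and tapasin (Tapbp) holds the empty heavy chain at the transporter until a peptide is loaded. Nlrc5 is the transactivator that drives transcription of many of these genes. Most resting neurons and glia of the retina carry little class I, and interferons and inflammatory cytokines raise it.

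Total counts per retina ranged from 30014757 to 79064488, and none of the 10 genes was at 0 in any retina, with a lowest count of 14 for Psmb9. Levels are given as CPM, counts scaled to a common library total after TMM normalization. Differences are on the log2 scale from limma, with a gene called at a false discovery rate (FDR) under 0.05 over all genes tested. All 10 genes passed the filter on low counts in every comparison. A few retinas of day 2 stood apart from their group and are named by mouse throughout: the IL1A+TNF retinas of mice 60780 and 60215 were low, the IL1A retina of mouse 60637 was high, the PBS retina of mouse 60641 was high and the TNF retina of mouse 60584 was low. In batch 2, the Sarm1-/- IL1A+TNF retinas of mice 61924 and 61926 stood apart in cell markers. Their bipolar cell markers summed to 105 and 118 CPM against 623 to 809 in the other 4 of the group, and their retinal ganglion cell markers to 84.2 and 69.6 against 234 to 493.4. Endothelial markers were at 220.4 and 150.4 CPM against 357 to 440, and the mitochondrial share of counts was 2.11% and 2.10% against 2.97 to 3.81%. Neutrophil markers were higher, at 647 and 604 CPM against 101 to 317, as were monocyte markers, at 127 and 111 against 53.8 to 76.8. In cone markers mouse 61765 of this group went with them, at 107 CPM beside 127 and 134. Mice 61564, 62221 and 61561 had cone sums of 429, 450 and 583 CPM. The ganglion cell sum of mouse 61765, 234 CPM, also lay below the WT IL1A+TNF range of batch 2 (253 to 441). For the 10 genes, results that rest on any of these retinas are given with and without them. In Sarm1-/- retinas, the reads of Sarm1 itself were reduced but not at 0, with 37.1 to 52.9 CPM in PBS retinas and 26 to 46.5 in IL1A+TNF retinas, against 105 to 124 and 83.9 to 108 in the WT groups of the same batch.

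Of the 10 genes, 5 lie on mouse chromosome 17, in or near the MHC (GRCm38): Tapbp at chr17:33915899-33929292 on the plus strand, H2-K1 at chr17:33996017-34000347 on the minus strand, Psmb9 at chr17:34181987-34187764 on the minus strand, Tap1 at chr17:34187553-34197225 on the plus strand and Tap2 at chr17:34203527-34216321 on the plus strand. B2m lies at chr2:122147686-122153083, Psme1 at chr14:55578123-55581529, Nlrc5 at chr8:94434356-94527272 and Erap1 at chr13:74639568-74693201, all on the plus strand, and Psmb10 lies at chr8:105935735-105938444 on the minus strand. Tap1 and Psmb9 stand head to head, and their annotated exons overlap by 212 bases. The strand setting of the counting was not given, so reads of those bases could not be assigned to a strand. The same holds for the exon bases shared with other genes in Tapbp (29%), Tap2 (18.5%) and Erap1 (11.5%, with Cast on the opposite strand). For H2-K1, 0.957% of its 100-base stretches were also found in H2-Q10, so few of its reads could come from another heavy chain by exact sequence.

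The start regions of 4 of the genes are shown because they differ in matches to short forms of motifs that interferon, NF-kB and Nlrc5 related factors are known to bind. RefSeq windows (GRCm38.p6) of 300 bases, most of it before the annotated start, were found for 8 of the 10 genes and not for Tap2 and Nlrc5. Capitals mark matches to GAANNGAAA (a form of the interferon response element core), GGGNNTTCC (a form of the NF-kB site) and TGACG (the core of the X2 box), read on both strands. The H2-K1 window is chr17:34000298-34000597 on the minus strand, the B2m window chr2:122147437-122147736 on the plus strand, the Tap1 window chr17:34187306-34187605 on the plus strand and the Psme1 window chr14:55578244-55578543 on the plus strand.
H2-K1: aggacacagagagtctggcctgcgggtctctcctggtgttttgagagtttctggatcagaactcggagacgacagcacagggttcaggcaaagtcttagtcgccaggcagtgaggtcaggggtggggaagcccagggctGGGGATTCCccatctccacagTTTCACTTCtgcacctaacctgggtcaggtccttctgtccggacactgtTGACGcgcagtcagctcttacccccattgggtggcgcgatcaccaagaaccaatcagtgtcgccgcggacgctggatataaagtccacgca
B2m: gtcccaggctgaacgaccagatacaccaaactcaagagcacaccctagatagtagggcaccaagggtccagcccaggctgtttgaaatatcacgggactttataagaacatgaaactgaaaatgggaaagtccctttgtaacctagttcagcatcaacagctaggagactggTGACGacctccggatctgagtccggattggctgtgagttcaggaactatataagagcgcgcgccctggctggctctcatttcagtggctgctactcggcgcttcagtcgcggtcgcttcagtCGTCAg
Tap1: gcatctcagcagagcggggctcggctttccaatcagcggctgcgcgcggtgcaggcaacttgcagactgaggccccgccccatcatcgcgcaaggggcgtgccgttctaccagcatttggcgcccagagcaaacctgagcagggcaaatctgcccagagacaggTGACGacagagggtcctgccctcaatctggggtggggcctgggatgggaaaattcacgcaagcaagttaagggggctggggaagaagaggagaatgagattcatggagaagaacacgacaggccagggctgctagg
Psme1: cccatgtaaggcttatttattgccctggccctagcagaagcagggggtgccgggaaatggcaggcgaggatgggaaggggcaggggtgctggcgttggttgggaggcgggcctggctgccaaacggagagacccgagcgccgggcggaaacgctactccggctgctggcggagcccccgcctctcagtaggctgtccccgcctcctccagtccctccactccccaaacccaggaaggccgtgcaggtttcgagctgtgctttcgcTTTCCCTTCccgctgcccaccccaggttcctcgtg
H2-K1 held all 3 motifs, the NF-kB match 111 bases before the start, the interferon element 90 before on the opposite strand and TGACG 41 before. Of the marked patterns, B2m held only TGACG, 78 bases before its start and again, on the opposite strand, 45 after it. Its window also holds gaaactgaaa, a longer run with similar letters that the GAANNGAAA pattern cannot match. B2m is therefore not shown to lack an interferon response element. Tap1 held TGACG 86 bases before its start, and Psme1 held the interferon element 16 bases after it on the opposite strand.

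Across the 8 windows, GAANNGAAA was found in 2 (H2-K1 and Psme1) and in 7.52% of all 32851 windows of the same length. GGGNNTTCC was found in 1 (H2-K1) and in 5.82% of all windows, and TGACG in 4 (H2-K1, B2m, Tap1 and Psmb9) and in 20.8% of all windows. CCAAT was found in 5 (H2-K1, B2m, Tap1, Tapbp and Psmb9) and in 37.4% of all windows. TTCNNNGAA (an interferon gamma activated site) was found in 0 of the 8 and in 8.3% of all windows. The Tap1 and Psmb9 windows share 275 bases, so their matches are not separate ones. A match is a description of the letters in the window and not a measured binding site. Of the interferon response element only the GAANNGAAA form was searched, so a window without a match can hold another form of it.

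The first comparison asked how the 10 genes stood in retinas that received both cytokines. At day 2 all 10 were higher in IL1A+TNF than in PBS retinas, by 9.75-fold for Tap1 and 1.299-fold for Psme1 at the extremes. All 10 were called higher, where 50.4% of the 19548 genes tested were called in either direction and 24.9% were called higher. The median log2 difference of the 10 genes was 1.398, against -0.02 over all genes tested. In whole retinas, fewer cells of a type and less RNA per cell cannot be told apart.

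**Figure D1:**
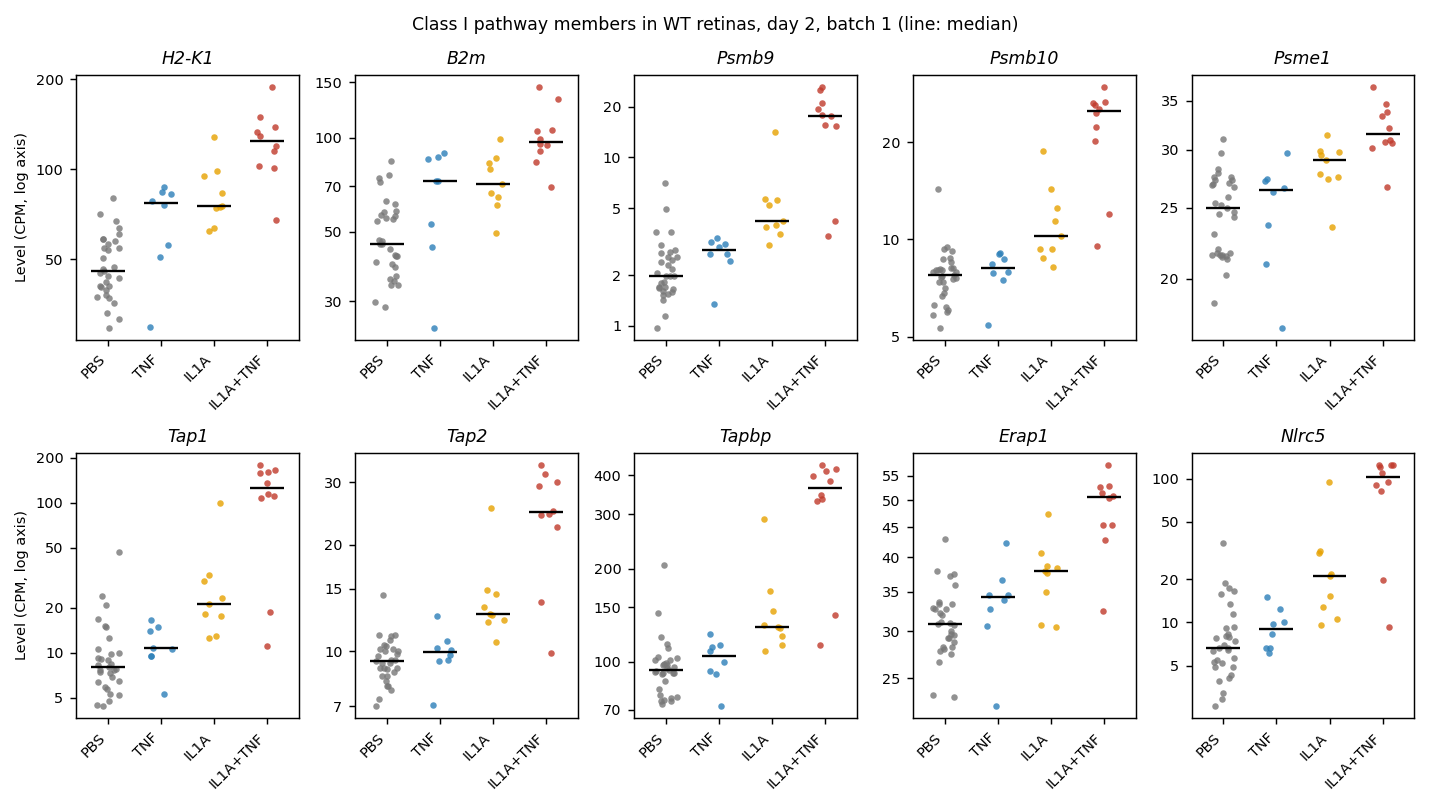
Level of each gene (CPM, log axis) in every WT retina of batch 1 at day 2, with a line at the group median (31 PBS, 8 TNF, 9 IL1A and 10 IL1A+TNF retinas). For Tap1, 8 of the 10 IL1A+TNF retinas lie between 107 and 179 CPM, above every PBS and IL1A retina, and 2 lie at 11.1 and 18.8 CPM.

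Tap1, a subunit of the peptide transporter, had the largest fold by point estimate, not separable from that of Nlrc5, and in batch 2 Nlrc5 came first. Tap1 stood at 4.41 CPM in the lowest PBS retina, 8.04 in the median and 47.1 in the highest, against 11.1, 125 and 179 in IL1A+TNF retinas. The log2 difference was 3.29 ± 0.32 (SE; 95% interval of the fold 6.29 to 15.1; limma FDR 3.25e-13). The Tap1 levels of 8 of the 10 IL1A+TNF retinas lay above the highest PBS retina, which came from mouse 60641, and the 2 that did not were those of mice 60780 (11.1 CPM) and 60215 (18.8 CPM). Tap2, its partner in the transporter, ranged from 7.02 to 14.4 CPM in PBS retinas (median 9.40) and from 9.92 to 33.5 CPM in IL1A+TNF retinas (median 24.6). Its log2 difference was 1.28 ± 0.11 (SE; limma FDR 2.77e-14), less than that of Tap1 by point estimate.

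Tapbp, the chaperone that bridges the heavy chain and the transporter, ranged from 73.0 to 206 CPM in PBS retinas (median 94.3) and from 113 to 432 CPM in IL1A+TNF retinas (median 364). This was a log2 difference of 1.68 ± 0.14 (SE; limma FDR 7.15e-15), or 3.20-fold. Again 8 of the 10 IL1A+TNF retinas were above every PBS retina, and those of mice 60780 and 60215 were not. Erap1, the trimming peptidase, ranged from 23.2 to 43.0 CPM in PBS retinas (median 30.8) and from 32.5 to 57.3 CPM in IL1A+TNF retinas (median 50.6), a 1.55-fold difference (log2 0.63 ± 0.07 SE; limma FDR 2.46e-11).

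Of the proteasome genes, the immunoproteasome subunits moved far more than the activator. Psmb9, an inducible catalytic subunit, ranged from 0.977 to 7.05 CPM in PBS retinas (median 1.98) and from 3.42 to 26.3 CPM in IL1A+TNF retinas (median 17.7). Its log2 difference was 2.65 ± 0.25 (SE; limma FDR 1.03e-13), or 6.29-fold. Psmb10, another inducible catalytic subunit, went from a median of 7.78 CPM (range 5.33 to 14.3) to a median of 25 CPM (range 9.57 to 29.7), a log2 difference of 1.45 ± 0.12 (SE; limma FDR 1.29e-15). Psme1 had a median of 25 CPM (range 18.5 to 31) in PBS retinas and of 31.6 CPM (range 26.7 to 36.6) in IL1A+TNF retinas, a log2 difference of 0.38 ± 0.06 (SE; limma FDR 4.24e-07). For Psme1 the groups overlapped more than for the other 9 genes, with 5 of 10 IL1A+TNF retinas above the highest PBS retina.

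The class I molecule itself rose as well. H2-K1 ranged from 29.6 to 80.4 CPM in PBS retinas (median 45.8) and from 67.7 to 189 CPM in IL1A+TNF retinas (median 124), a 2.55-fold difference (log2 1.35 ± 0.13 SE; limma FDR 9.60e-13). For this gene 9 of the 10 IL1A+TNF retinas lay above the highest PBS retina, and the retina of mouse 60780 did not. B2m, its light chain, ranged from 28.7 to 84.3 CPM in PBS retinas (median 45.8) and from 69.4 to 145 CPM in IL1A+TNF retinas (median 97.1), a 2.09-fold difference (log2 1.06 ± 0.14 SE; limma FDR 6.20e-09).

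Nlrc5, the transactivator, changed about as much as Tap1. It ranged from 2.63 to 35.5 CPM in PBS retinas (median 6.64) and from 9.34 to 125 CPM in IL1A+TNF retinas (median 102), a 9.60-fold difference (95% interval 6.17 to 14.9; log2 3.26 ± 0.32 SE; limma FDR 5.04e-13). Its retinas stood in the same order at the extremes, with mice 60780 (9.34 CPM) and 60215 (19.7 CPM) lowest among the IL1A+TNF retinas. Without those 2 mice all 10 genes were still called, and the log2 differences of Tap1 and Nlrc5 were 3.94 and 3.83. Without mouse 60641, all 10 were called too. For each of the 10 genes at least 1 IL1A+TNF retina lay within the PBS range, and 2.62% of genes with a mean of at least 1 CPM were higher without overlap.

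Levels of different genes can be compared only per length. Per kilobase of exon, B2m led in PBS retinas with a median of 53.2 CPM per kb, followed by Tapbp with 26, H2-K1 with 15.6 and Psme1 with 11.3. Psmb10 (4.56), Erap1 (4.23), Tap2 (2.49), Tap1 (1.47), Nlrc5 (0.782) and Psmb9 (0.542) followed in CPM per kb. The ranges over retinas of all neighbours in this order overlapped, such as those of B2m (33.4 to 98.0) and Tapbp (20.1 to 56.7), and those of Psme1 and Psmb10 met only at their ends (8.38 CPM per kb). In IL1A+TNF retinas, Tap1 had moved from rank 8 to rank 4 of the 10, with a median of 22.8 CPM per kb.

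**Figure D2:**
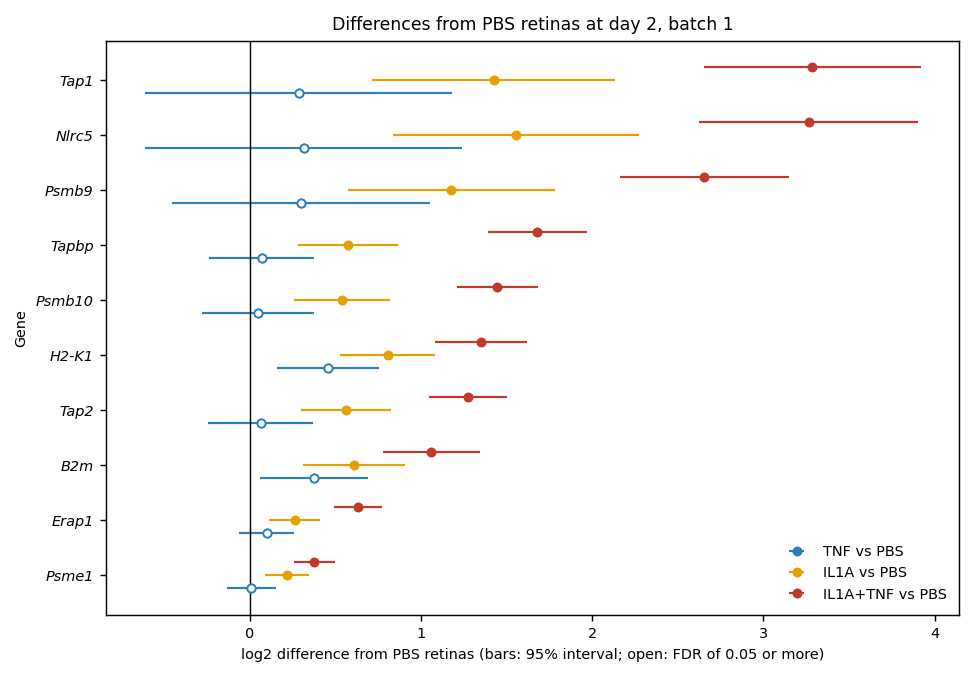
Log2 difference from PBS retinas for each gene in TNF, IL1A and IL1A+TNF retinas of batch 1 at day 2, with 95% intervals and open symbols where the FDR was 0.05 or more. The IL1A+TNF values run from 0.38 (Psme1) to 3.29 (Tap1) and the TNF values, all open, from 0.0082 (Psme1) to 0.46 (H2-K1).

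IL1A alone raised the same genes to a lesser extent. All 10 were called higher in IL1A than in PBS retinas, where 21.4% of genes were called in either direction and 12% were called higher, and the median log2 difference of the 10 genes was 0.59 against -0.010 over all genes. Nlrc5 ranged from 9.59 to 94.5 CPM (median 21) in the 9 IL1A retinas, a log2 difference from PBS of 1.56 ± 0.36 (SE; limma FDR 0.000775). Tap1 ranged from 12.6 to 98.9 CPM (median 21.2), a log2 difference of 1.42 ± 0.36 (SE; limma FDR 0.00189). The groups overlapped for all 10 genes, the highest PBS retina lying within the IL1A range, and 0.132% of genes with a mean of at least 1 CPM were higher in IL1A retinas without overlap.

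H2-K1 had a median of 75.2 CPM in IL1A retinas (range 62.3 to 128) and was 1.75-fold higher than in PBS retinas, with a log2 difference of 0.80 ± 0.14 (SE; limma FDR 9.37e-06). Psmb9 was 2.26-fold higher, B2m 1.53-fold, Tapbp 1.49-fold, Tap2 1.47-fold, Psmb10 1.45-fold, Erap1 1.198-fold and Psme1 1.16-fold. With each mouse as a fixed term, which compares eyes within mice (7 mice had IL1A in 1 eye and PBS in the other), 5 of the 10 genes were called (H2-K1, Tap1, Tap2, Psmb9 and Nlrc5), with a Tap1 log2 difference of 1.31. The highest IL1A retina for 9 of the 10 genes, all but Psme1, was that of mouse 60637, and without this mouse 9 genes were called, Erap1 being lost (log2 0.21; limma FDR 0.0578), and the Tap1 log2 difference was 1.17. In mouse 60641 the order of the eyes was opposite, with Tap1 at 18 CPM in its IL1A retina and 47.1 CPM in its PBS retina.

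TNF alone gave no call among the 10 genes. At day 2, 0 of 10 passed in limma, edgeR and DESeq2, 2 had an unadjusted limma p under 0.05, and 0.655% of all genes were called. H2-K1 stood at 29.7, 50.8, 55.8, 76.1, 78.3, 82.4, 83.8 and 87.0 CPM in the 8 TNF retinas. The highest 3 of these lay above the highest PBS retina (80.4 CPM), and the lowest, from mouse 60584, lay at the lowest PBS level. The H2-K1 log2 difference was 0.46 ± 0.15 (SE; limma p = 0.00310, FDR 0.203), and that of B2m 0.38 ± 0.16 (SE; limma p = 0.0203, FDR 0.484). For Tap1 the difference was 0.29 (95% interval -0.61 to 1.18), so a change of this size in either direction was not detectable with these retinas.

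The TNF values turned on 1 retina. Without mouse 60584, whose TNF retina was the lowest of the group for all 10 genes, 2 genes were called, H2-K1 at a log2 difference of 0.64 (limma FDR 0.00196) and B2m at 0.59 (limma FDR 0.00691). The same retina had the lowest summed level of microglia and macrophage markers of the TNF group, 50.3 CPM against a median of 149, and of neutrophil markers, 2.34 against a median of 20.5. The part of these cells in the difference was not tested.

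**Figure D3:**
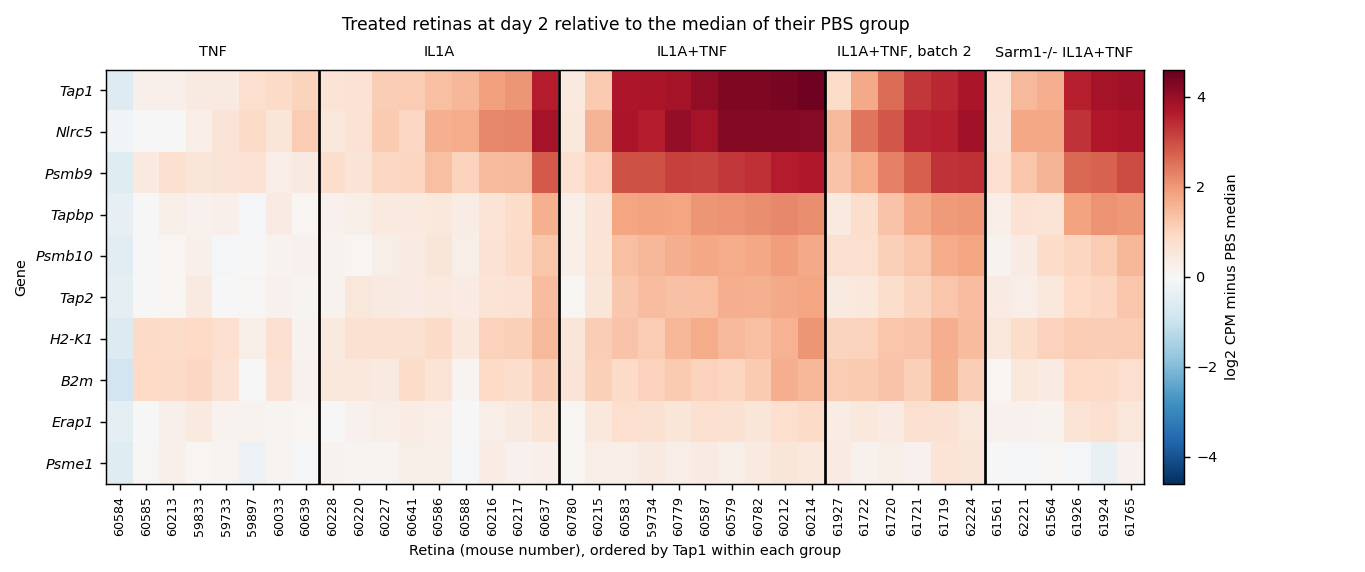
Log2 CPM of each gene in every treated retina of day 2 minus the median of the PBS retinas of its batch and genotype, with retinas (mouse numbers) ordered by Tap1 within a group. The 10 genes rise and fall together from retina to retina, with mice 60780, 60215 and 61561 pale in the IL1A+TNF groups and mouse 60637 dark in the IL1A group.

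Adding TNF to IL1A raised the genes further. Compared with IL1A alone, 8 of the 10 genes were called higher in IL1A+TNF retinas, where 10.1% of genes were called and 5.39% were called higher. Tap1 was higher by 1.86 ± 0.38 on the log2 scale (SE; limma FDR 0.000658), Nlrc5 by 1.71 ± 0.38 (SE; limma FDR 0.00154) and Psmb9 by 1.48 ± 0.31 (SE; limma FDR 0.000894). Tapbp followed at 1.11, Psmb10 at 0.91, Tap2 at 0.72, H2-K1 at 0.55 and Erap1 at 0.37. B2m (0.45 ± 0.18 SE; limma FDR 0.102) and Psme1 (0.16 ± 0.08 SE; limma FDR 0.186) did not pass. Without mice 60780 and 60215 the count was again 8, with Tap1 at 2.52, and without mouse 60584 it was 9, with B2m called (limma FDR 0.0460).

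Compared with TNF alone, IL1A gave positive point estimates for all 10 genes, but 0 were called in limma, where 9.08% of all genes were called. An unadjusted limma p under 0.05 was found for 7, and edgeR and DESeq2 each called 5 (Tap1, Tap2, Psmb9, Psmb10 and Nlrc5). The lowest limma FDR was 0.0689, for Tap2 at a log2 difference of 0.50. Without mice 60780 and 60215, which gave no IL1A or TNF retina but enter the shared fit, 6 were called. In the order of group medians, PBS came first and IL1A+TNF last for all 10 genes, and TNF lay below IL1A for 8 of them. For H2-K1 (77.2 and 75.2 CPM) and B2m (72.5 and 70.9 CPM) the TNF median was the higher one. PBS and TNF were not separated beyond their spread for any of the 10, and TNF and IL1A were separated or not depending on the method.

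Whether the joint response exceeded the sum of the single ones was tested as IL1A+TNF minus IL1A minus TNF plus PBS on the log2 scale. Tapbp exceeded the sum by 1.04 ± 0.24 (SE; limma FDR 0.00862) and Psmb10 by 0.86 ± 0.22 (SE; limma FDR 0.0216), and these 2 of 10 were called where 3.60% of genes were called and 1.78% were called positive. The estimates of Tap1 (1.58; limma FDR 0.120), Nlrc5 (1.39; 0.191), Psmb9 (1.18; 0.171) and Tap2 (0.65; 0.0687) were positive and did not pass. edgeR called 5 (Tap1, Tap2, Tapbp, Psmb9 and Psmb10) and DESeq2 called 6, those and Nlrc5. For the class I molecule itself the estimates were near 0, with H2-K1 at 0.09 (95% interval -0.36 to 0.54) and B2m at 0.07 (95% interval -0.41 to 0.55).

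The count of such departures moved with single mice. Without mouse 60637, 4 genes were called, with Tap1 (1.84; limma FDR 0.0486) and Tap2 (0.76) added. Without mice 60780 and 60215, 7 were called, and only H2-K1, B2m and Psme1 were not. Without mouse 60584, 2 were called, and the estimates of H2-K1 and B2m turned to -0.09 and -0.14.

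Microglia, neutrophil and monocyte markers were high in IL1A+TNF retinas, the 2 low ones included. The summed level of 9 microglia and macrophage markers was 195 CPM in the retina of mouse 60780 and 277 CPM in that of mouse 60215, the lowest and the highest of the 10 IL1A+TNF retinas, and both lay above the PBS range of 55.8 to 122 CPM. Of these 9 markers, 7 were called higher and 1 lower in IL1A+TNF than in PBS retinas. Neutrophil markers summed to 117 to 745 CPM in IL1A+TNF retinas (154 and 134 in the 2 low ones), 63.3 to 346 in IL1A retinas, 2.34 to 48.6 in TNF retinas and 2.47 to 129 in PBS retinas, and all 5 of 8 that could be tested were called higher in IL1A+TNF. Monocyte markers summed to 62.6 to 130 CPM against 15.1 to 68.7, with 5 of 6 called higher. B cell markers summed to a median of 1.02 CPM against 1.05, and 0 of the 3 tested were called. Glia and vessels differed as well. Astrocyte markers summed to a median of 282 CPM against 124 (2 of 4 called higher and 2 lower), endothelial markers to 439 against 291 (5 of 5 higher) and Mueller glia markers to 1842 against 2687 (2 of 5 higher and 2 lower). Cone markers, of which 4 of 4 were called lower, summed to a median of 202 CPM against 788. Rod markers, of which 4 of 5 were called lower, summed to a median of 22278 CPM against 41747 CPM in PBS retinas, where they showed the tissue to be retina. All 12 T and NK cell markers had a median under 1 CPM in every group, with a highest sum of 3.51 CPM in any retina. The part of these cells in the levels of the 10 genes was not tested.

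Irf1 and Irf8 stood low in both retinas. Irf1, which binds interferon response elements, was at 14.6 CPM in the retina of mouse 60780 and 16.1 in that of mouse 60215, against 40.3 to 80.9 in the other 8 IL1A+TNF retinas and 6.90 to 26.1 in PBS retinas. Irf8, a myeloid interferon regulatory factor, was at 8.06 and 13.2 CPM against 25.2 to 53.6. The interferon genes themselves were barely counted, with a median of 0 for both Ifng and Ifnb1 and highest values of 0.0728 and 0.0501 CPM. Whether these 2 regulators account for the low retinas was not tested.

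The other genes of the pathway were read from lists of 73 genes. Of 15 other class I heavy chains that could be tested, out of 19, 12 were called higher and 1 lower in IL1A+TNF than in PBS retinas (median log2 difference 0.64). H2-D1, the other classical heavy chain of this strain, stood at 48.1 to 233 CPM (median 91.9) in PBS retinas and at 145 to 631 CPM (median 448) in IL1A+TNF retinas. This was a log2 difference of 2.01 ± 0.18 (SE), above the 1.35 of H2-K1 by point estimate. H2-Q10 (2.44) and H2-Q6 (1.70) also rose. In the H2-D1 start region the same GGGNNTTCC, GAANNGAAA and TGACG matches were found as in H2-K1.

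Around the members, the immune partners rose and the constitutive machinery moved little. Psmb8, the remaining inducible catalytic subunit, rose by 1.87 ± 0.16 on the log2 scale (SE), from a median of 4.37 CPM to a median of 20.2 CPM. Psme2, which pairs with Psme1 in PA28, rose by 0.67 ± 0.07 (SE), from a median of 22 CPM to 38.8 CPM. For Psme2, 18.4% of its 100-base stretches were also found in Psme2b. Psmb8 shared 14.7% of its exon bases with Gm20496 on the opposite strand. Of the 14 constitutive core subunits, 10 were called higher, with a median of 0.13 and Psma3 at 0.32, Psma5 at 0.22 and Psmb5 at 0.20. Of the 4 other peptide loading genes, 3 were called higher: Tapbpl, a relative of tapasin, at 0.65, and the chaperones Pdia3 at 0.25 and Calr at 0.20. Of 5 other peptidases, 2 were higher (Thop1 0.25 and Tpp2 0.16) and 1 lower (Npepps -0.18).

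Of the 16 regulators of class I transcription, 12 were called higher and 2 lower, led by Irf8 at 2.45, Socs1, a feedback inhibitor of the JAK-STAT pathway, at 2.31, and Irf1 at 2.07. Of the interferon ligands and receptors, 4 of 10 could be tested and all 4 were called higher, among them Ifnar2 at 0.78, Ifngr2 at 0.39 and Ifngr1 at 0.29. With IL1A alone, 8 of the 15 other heavy chains and 9 of the 16 regulators were called higher, but 0 of 14 core subunits and 0 of 4 peptide loading genes. With TNF alone, 0 genes of these lists were called in limma. In the test of departure from the sum of single responses, 7 of 16 regulators were called, including Irf1 at 1.33 (limma FDR 0.0229), along with Psme2 at 0.53 (limma FDR 0.00961) and Tapbpl at 0.45 (limma FDR 0.0433), while H2-D1 (0.84; limma FDR 0.0921) and Psmb8 (0.77; limma FDR 0.144) were not.

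The 10 genes rose and fell together over the 58 retinas of day 2, which pool 4 treatments and 35 mice. The Pearson r of a gene's log2 CPM with the mean of the other 9 was 0.972 for Psmb9, 0.971 for Tapbp, 0.970 for Psmb10, 0.966 for Tap2 and 0.962 for Tap1. It was lower for H2-K1 (0.935), Nlrc5 (0.919), Erap1 (0.878), B2m (0.851) and Psme1 (0.799). Within the 31 PBS retinas alone it ran from 0.471 for Erap1 to 0.929 for Tapbp. These values share libraries and scaling and are given as a description.

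Outside the lists, the genes of at least 1 CPM whose levels were most like the mean of the 10 were Shisa5 (r = 0.986), Pik3ap1 (0.972), Dtx3l (0.969), Zc3hav1 (0.965) and Irgm2 (0.965), ranked among 14820 genes over 58 retinas. Shisa5 ranged from 12.5 to 38.6 CPM in PBS retinas (median 19.3) and from 29.5 to 92.9 CPM in IL1A+TNF retinas (median 63.2).

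Among the 31 PBS retinas, 1 per mouse, Nlrc5 was set against each of the other 9 genes. Nlrc5 was not the gene closest to the rest there. Its r with the mean of the other 9 was 0.674, against 0.929 for Tapbp, and only Psme1 (0.623) and Erap1 (0.471) were lower. The level closest to that of Nlrc5 was that of Tap1, with a Pearson r of 0.895 and a Spearman rho of 0.810 (adjusted permutation p = 3e-05 and 9e-05 over 9 relations, from a p of 1e-05, the smallest that 100000 resamples can give). For Tap1, r was 0.834 without the 2 retinas farthest from the median of Nlrc5. Psmb9 (r = 0.736), Psmb10 (0.724), H2-K1 (0.713), Tap2 (0.709) and Tapbp (0.697) came next, with r between 0.465 and 0.622 without those 2 retinas. For B2m r was 0.407 (adjusted permutation p = 0.0297) and rho 0.364 (0.0589), and r fell to 0.298. Erap1 (r = 0.309, rho 0.209) and Psme1 (r = 0.215, rho 0.157) had adjusted permutation p-values from 0.104 to 0.401 and no relation that held without the 2 retinas.

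No difference among PBS retinas by what the fellow eye had received was called. Among PBS retinas of day 2 whose fellow eye was given TNF, IL1A or IL1A+TNF (8, 7 and 8 mice), 0 of 10 genes were called in limma, edgeR or DESeq2, 0 had an unadjusted p under 0.05, and 0% of the 18702 genes tested were called (659 had an unadjusted p under 0.05). The lowest p among the 10 was 0.429.

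The later days asked whether TNF moved the genes with time. At day 14, 0 of 10 genes were called between TNF and PBS retinas in limma, edgeR and DESeq2, with 0% of all genes called (838 had an unadjusted p under 0.05). Nlrc5 was at 1.77, 2.60, 2.67, 2.83, 3.93 and 5.86 CPM in the 6 TNF retinas and at 1.15 to 2.90 CPM in the 7 PBS retinas, of which 2 came from 1 mouse. It was the only gene of the 10 with an unadjusted p under 0.05 (log2 0.74 ± 0.24 SE; limma p = 0.00807, FDR 0.888). At day 35, 0 of 10 were called again by each tool, with 0% of all genes called (871 had an unadjusted p under 0.05), and Erap1 was the only one of the 10 with an unadjusted p under 0.05 (log2 0.10; limma p = 0.0373, FDR 0.889).

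The TNF effect was also compared between days directly. Between day 14 and day 2, 0 of 10 genes differed by limma, edgeR or DESeq2 (0% of 20056 genes in limma, 759 with an unadjusted p under 0.05), and the estimates ran from -0.40 for H2-K1 to 0.41 for Nlrc5. Between day 35 and day 2 the count was again 0 by each tool (0% of genes, 511 with an unadjusted p under 0.05), with estimates from -0.38 for H2-K1 to 0.015 for Psme1. None of the 10 had an unadjusted p under 0.05 in either. These 2 tests were not recomputed without mouse 60584, whose absence raised the day 2 difference of H2-K1 to 0.64 and that of B2m to 0.59. They are therefore given only with that mouse. The intervals were wide for Nlrc5 (-1.65 to 2.47 at day 14), so a difference of several fold between days was not detectable.

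**Figure D4:**
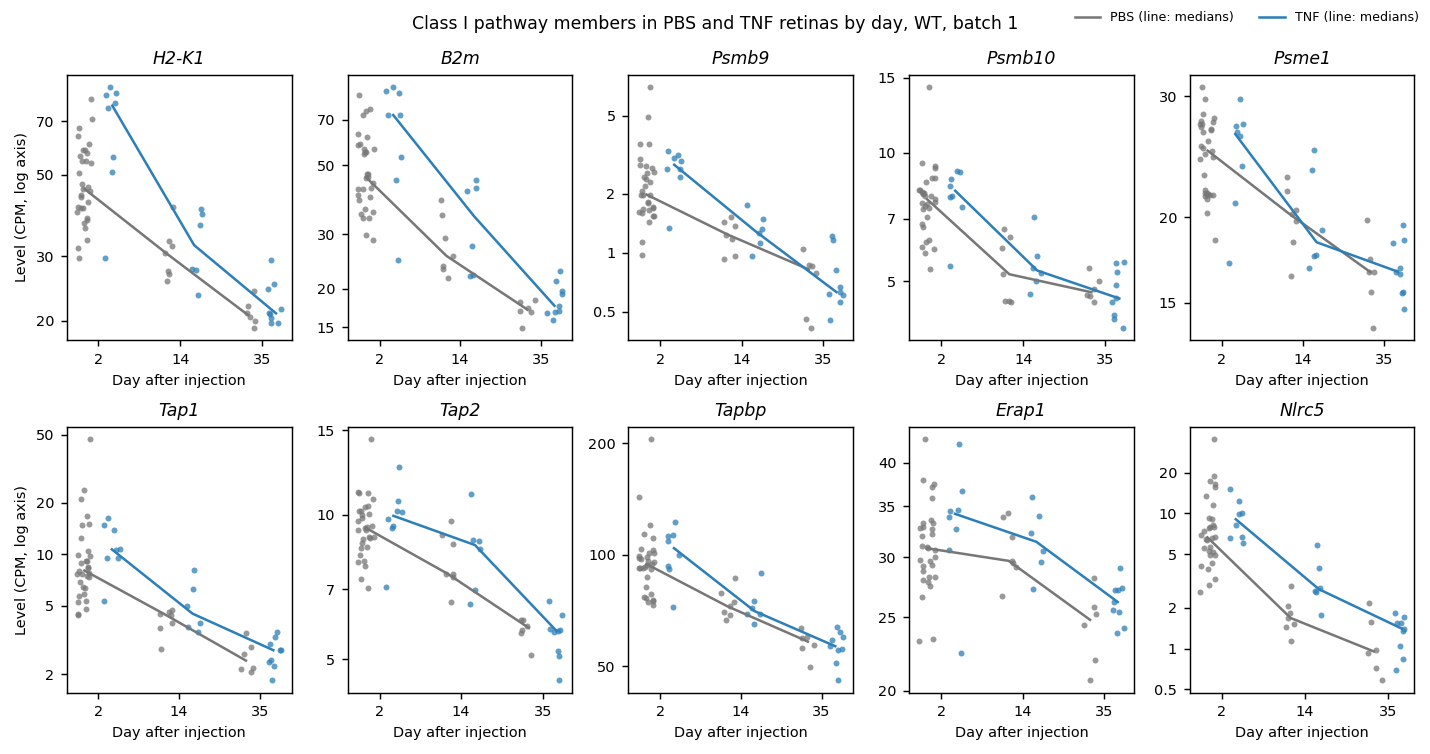
Level of each gene (CPM, log axis) in the PBS and TNF retinas of WT mice in batch 1 by day after injection, with lines through the medians. The median of Nlrc5 in PBS retinas went from 6.64 CPM at day 2 to 1.68 at day 14 and 0.953 at day 35.

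The control level itself changed with the day. All 10 genes differed across days among PBS retinas (limma F test), where 36.2% of 19372 genes were called, and all 10 were lower at both later days than at day 2. Nlrc5 had medians of 6.64, 1.68 and 0.953 CPM at days 2, 14 and 35, and its fitted level was 4.19-fold lower at day 14 and 7.04-fold lower at day 35 (limma FDR 5.73e-05). Tap1 had medians of 8.04, 4.45 and 2.40 CPM and was 2.22-fold and 3.58-fold lower (limma FDR 0.000389). At day 35 every PBS retina lay below every day 2 PBS retina for Nlrc5 (0.581 to 2.17 CPM against 2.63 to 35.5) and for Tap1 (2.06 to 3.45 against 4.41 to 47.1). The same held for H2-K1, B2m, Tap2 and Tapbp, and not for Psmb9, Psmb10, Psme1 and Erap1. The share of all genes without overlap between these days was not computed, so this is a description of the ranges only.

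B2m fell from a median of 45.8 CPM at day 2 to 25.5 at day 14 and 17.1 at day 35, which was 1.73-fold and 2.80-fold lower by the fit (limma FDR 2.46e-08). H2-K1 fell from 45.8 to 30.6 and 20.7 CPM, 1.55-fold and 2.25-fold lower (limma FDR 1.04e-07), with no overlap between day 35 (19.1 to 24.1) and day 2 (29.6 to 80.4). Erap1 changed least, by -0.02 at day 14 and -0.36 at day 35 on the log2 scale (limma FDR 0.00115). Of the lists, 10 of 15 other heavy chains, 12 of 16 regulators and 0 of 14 core subunits differed across days.

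Immune and astrocyte markers stood lower at the later days too. In PBS retinas the microglia and macrophage markers summed to 55.8 to 122 CPM at day 2, 32.7 to 45.7 at day 14 and 24.4 to 32.4 at day 35, and the neutrophil markers to 2.47 to 129, 0.695 to 3.07 and 0.675 to 1.24 CPM. Astrocyte markers had medians of 124, 58.3 and 36.5 CPM at days 2, 14 and 35, with no overlap between day 2 (74 to 192) and day 35 (32.7 to 42.6), while Mueller glia markers had higher medians at the later days, 3389 and 3384 CPM against 2687. The part of these cells in the fall was not tested. The day and any difference in handling between the days cannot be told apart, and without mouse 60641 the count was again 10.

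Batch 2 held the WT comparison in other mice. In its WT retinas all 10 genes were called higher with IL1A+TNF, where 20.9% of 19668 genes were called and 13.3% were called higher. Tap1 was at 5.46, 7.28, 10.1, 10.3 and 11.9 CPM in the 5 PBS retinas and at 18.3, 33.9, 60.9, 97.0, 114 and 136 CPM in the 6 IL1A+TNF retinas. The IL1A+TNF retinas stood above the PBS retinas without overlap for all 10 genes, as they did for 13.8% of the 15196 genes with a mean of at least 1 CPM. The log2 difference was 3.04 for Nlrc5, 2.80 ± 0.83 for Tap1 (SE; limma FDR 0.0215), 2.16 for Psmb9, 1.42 for Tapbp, 1.35 ± 0.16 for H2-K1 (SE; limma FDR 1.12e-05) and 0.39 for Psme1. The wide error of Tap1 came with calls that turned on single mice: without mouse 61720, 61721 or 62224 its FDR was 0.0635, 0.0679 and 0.0574 (log2 2.83, 2.61 and 2.67). Without mouse 61721 Nlrc5 was at 2.69 (limma FDR 0.0507), and without mouse 62224 Psme1 was at 0.34 (limma FDR 0.0680). With each mouse as a fixed term 8 were called, Psme1 (limma FDR 0.0815) and Erap1 (limma FDR 0.0521) being lost.

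**Figure D5:**
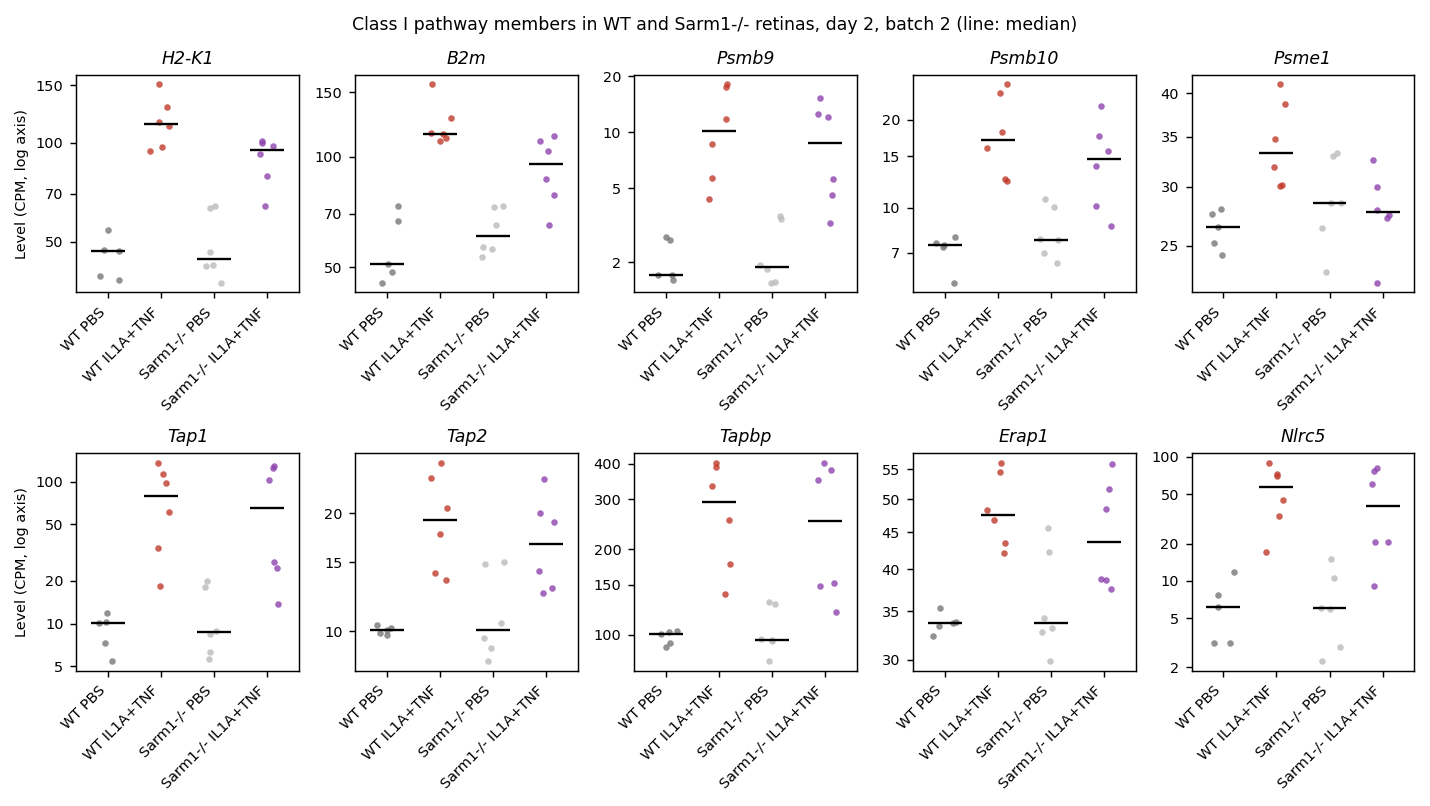
Level of each gene (CPM, log axis) in every retina of batch 2 at day 2, with a line at the group median (5 WT PBS, 6 WT IL1A+TNF, 6 Sarm1-/- PBS and 6 Sarm1-/- IL1A+TNF retinas). For Psme1 the WT IL1A+TNF retinas (30.1 to 41.1 CPM) lie above the WT PBS retinas (24.3 to 28), while the Sarm1-/- groups overlap (22.3 to 32.6 and 23.1 to 33.3).

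In Sarm1-/- retinas 9 of the 10 genes were called higher with IL1A+TNF than with PBS, where 43.5% of 20154 genes were called and 21.3% were called higher. This fit held both batches, with batch as a term. Without mice 61924 and 61926, whose IL1A+TNF retinas stood apart in cell markers, limma called 0 of the 10 genes and 995 of 20459 genes in all, while 6 of the 10 and 4251 genes had an unadjusted p under 0.05. The point estimates of 9 genes were still positive, with Tap1 at 1.45 ± 0.65 (SE; limma FDR 0.181) and H2-K1 at 0.71 (95% interval 0.227 to 1.199; limma FDR 0.0702). Tap1 was at 5.60, 6.35, 8.42, 8.90, 18 and 19.8 CPM in PBS retinas and at 13.7, 24.7, 27.3, 103, 125 and 129 CPM in IL1A+TNF retinas. The IL1A+TNF retinas fell into a lower and an upper set of 3, the upper from mice 61926, 61924 and 61765, and mouse 61561 had less Tap1 in its IL1A+TNF retina (13.7 CPM) than in its PBS retina (18 CPM). The upper 3 also had the lowest cone marker sums of the group, and a relation between the levels was not tested. The log2 difference was 2.32 ± 0.57 for Tap1 (SE; limma FDR 0.000632), 2.51 for Nlrc5, 1.80 for Psmb9, 1.17 ± 0.25 for Tapbp (SE; limma FDR 0.000106), 0.78 for Psmb10 and 0.61 for Tap2.

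H2-K1 was at 37.6 to 64.1 CPM in Sarm1-/- PBS retinas and at 64.3 to 101 CPM in IL1A+TNF retinas (log2 0.88 ± 0.20 SE; limma FDR 0.000212). It was the 1 gene of the 10 whose groups did not overlap, by the gap between 64.1 and 64.3 CPM, where 3.45% of genes with a mean of at least 1 CPM were higher without overlap. B2m was at 53.4 to 73.5 and 65.1 to 114 CPM (log2 0.57; limma FDR 0.0190). Psme1 was not called, at -0.03 ± 0.09 (SE; limma FDR 0.824), with 2 of 6 IL1A+TNF retinas above the mean of the PBS retinas. Calls of B2m, Tap2 and Erap1 depended on single mice. B2m and Erap1 were lost without mouse 61765 (0.48 and 0.24; limma FDR 0.0866 and 0.109), 61924 (0.54 and 0.21; limma FDR 0.0634 and 0.183) or 61926 (0.46 and 0.25; limma FDR 0.113 and 0.104). Tap2 was lost without mouse 61765 (0.44; limma FDR 0.0812) or 61924 (0.46; limma FDR 0.0874).

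Between genotypes, the PBS retinas gave 0 calls among the 10 genes in limma, edgeR and DESeq2, 0 with an unadjusted p under 0.05, and 0.0397% of all genes called (984 had an unadjusted p under 0.05). The estimates of Sarm1-/- minus WT ran from 0.10 for H2-K1 to 0.49 for Tap1 (95% interval -0.69 to 1.66). In IL1A+TNF retinas all 10 estimates were negative, and 1 gene was called, where 14.8% of all genes were called and 10.8% were called lower. This was Psme1, at -0.29 ± 0.09 (SE; limma FDR 0.0163). B2m (-0.39; limma FDR 0.157), H2-K1 (-0.37; 0.165), Nlrc5 (-0.52; 0.482) and Tap1 (-0.38; 0.646) did not pass.

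The difference between the responses of the genotypes was tested directly. Psme1 was again called, at -0.41 ± 0.11 (SE; limma FDR 0.0154), and 1 of 10 is near the 8.75% of all genes called in either direction and the 7.24% called negative. All 10 estimates were negative, with Tap1 at -0.86 (limma FDR 0.455), Nlrc5 at -0.71 (0.572), Psmb10 at -0.62 (0.0886), Tap2 at -0.57 (0.0949), B2m at -0.51 (0.173) and H2-K1 at -0.47 (0.195). Psme1 was at 30.1, 30.1, 31.9, 34.8, 38.7 and 41.1 CPM in the WT IL1A+TNF retinas and at 22.3, 27.3, 27.5, 27.9, 29.98 and 32.6 CPM in the Sarm1-/- ones, so the genotypes overlapped in 1 Sarm1-/- retina, that of mouse 61765.

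The Psme1 call did not hold across settings. In both genotype tests edgeR called 0 of 10 genes and DESeq2 called 1, and batch 2 fitted alone called 0. Without mouse 61924 the response difference of Psme1 was -0.36 (limma FDR 0.195), and without mouse 61926 it was -0.44 (limma FDR 0.0825), with 0 genes called in both tests. Without mouse 61765, 3 genes were called in the test of responses: Tap2 (-0.74), Psmb10 (-0.83) and Psme1 (-0.52). Without both mice 61924 and 61926, limma called 0 of the 10 genes in either test. For the IL1A+TNF retinas alone 6 of the 10 had an unadjusted p under 0.05 (3018 of all genes), and 154 genes were called in all. For the difference between responses 10 of the 10 had an unadjusted p under 0.05 (2426 of all genes), and 0 genes were called in all, with Psme1 at -0.37 (limma FDR 0.294) and Tap1 at -1.72 (95% interval -3.16 to -0.29; limma FDR 0.357).

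The same IL1A+TNF retinas differed by genotype in cell markers. In batch 2, microglia and macrophage markers summed to 249 to 376 CPM in WT and 160 to 205 CPM in Sarm1-/- retinas, without overlap. The WT IL1A+TNF retinas of batch 1, at 195 to 277 CPM, overlapped the Sarm1-/- range. In the fit of both batches, 6 of 9 of these markers were called lower in Sarm1-/- (median log2 difference -0.63). Of the 5 retinal ganglion cell markers, 5 were called lower in that fit (median -0.92). Their sums in batch 2 overlapped, at 253 to 441 CPM in WT (median 391) and 69.6 to 493.4 CPM in Sarm1-/- retinas (median 322). The lowest sums were those of mice 61926 and 61924, and the other Sarm1-/- retinas, at 234 to 493.4 CPM, spanned the WT range. Neutrophil markers in batch 2 summed to 146 to 671 CPM in WT and 101 to 647 CPM in Sarm1-/- retinas. Of the 15 other heavy chains, 6 were called lower in Sarm1-/-, among them H2-Q6 at -0.71 (limma FDR 0.00833), while 0 of 14 core subunits were called. Over all genes in that fit 14.8% were called and 10.8% were called lower. The calls of markers and of these lists were not recomputed without mice 61924 and 61926, where the genes called in all went from 2988 to 154. The part of these cells in the genotype differences was not tested.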

How the data were processed

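RNA of 109 mouse retinas was compared by treatment, day and genotype as the labels give them. Per the labels and the submitters' processing notes, STAR 2.7.9a (mm10) and featureCounts (Subread 2.0.1) were used by the authors for alignment and counting, and the deposited values are whole counts per gene. The annotation release and the strand setting are not given in the sources used here. The members and lists were chosen with earlier results of these data known.

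Genes passing filterByExpr (minimum count 10, total 15) were fitted with limma 3.58.1 (R 4.3.3, edgeR 4.0.16, statmod 1.5.0): TMM factors, 2 rounds of voom and duplicateCorrelation with mouse as block, sex as covariate and, across batches, batch, with Benjamini-Hochberg adjustment over all genes tested. PBS retinas across days and by fellow eye had no block. The 2 eyes of a mouse share its number in the labels, and the correlation within mice in the day 2 fit was 0.0515. Eyes of a mouse are not independent, and the p-values of the fits set a difference between groups against the spread between these retinas. Alternatives were edgeR's quasi-likelihood test, DESeq2 1.42.0, no sex term, no filter, other size factors, no block, mouse as a fixed term, batch 2 alone and leaving out each replicate or named mice. The fits were tested on simulated data. Lengths and positions came from GENCODE M21 and correlations from Python 3.11.15 with SciPy 1.17.1. No 2 of 716 pairs of libraries agreed within sampling noise. Totals of at least 30014757 counts put a count of 10 below 1 CPM. Besides the 10 members, the text names up to 3 genes of a list with the largest called difference in IL1A+TNF and a mean of at least 1 CPM, H2-D1, Psmb8 and Psme2, the 5 genes most alike, and Ifng and Ifnb1, chosen after their values were seen.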

Additional observations from a re-analysis of the deposited data

Results flagged for a closer look

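In groups of 4 to 10 retinas, the gap of the highest or lowest retina to its neighbour, as a share of the group's range, passed the 95% limit of Dixon's test in 9 of 110 groups tested, where chance gives about 1 in 20. In the IL1A group the retina of mouse 60637 stood above the rest for Tap1 (gap 0.537 of the range; 98.9 CPM against a median of 19.6 in the others), Tap2 (0.614; 25.4 against 12.7 CPM), Tapbp (0.547; 290 against 129 CPM) and Psmb9 (0.594; 14.1 against 4.07 CPM). In the same group the retina of mouse 60588 was low for Psme1 (0.525; 23.5 against 29.3 CPM). In the TNF group the retina of mouse 60584 was low for Psmb9 (0.659; 1.35 against 2.94 CPM) and Psmb10 (0.623; 5.42 against 8.38 CPM). The WT PBS retina of mouse 61927 in batch 2 was low for Psmb10 (0.778; 5.54 against 7.52 CPM), and the IL1A+TNF retina of mouse 60780 was low for Erap1 (0.483; 32.5 against 50.7 CPM).

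The effect of IL1A differed with the presence of TNF for Tapbp, by 1.04 on the log2 scale (limma FDR 0.00862), and for Psmb10, by 0.86 (limma FDR 0.0216). The effect of IL1A+TNF differed between genotypes for Psme1, by -0.41 (limma FDR 0.0154), where 8.75% of all genes were called. That call was lost in edgeR (FDR 0.0566), in batch 2 alone (limma FDR 0.814) and without mouse 61924 (limma FDR 0.195) or 61926 (limma FDR 0.0825), or both (limma FDR 0.294).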

How the results depend on the processing

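Of 2360 recomputed values of single members, 2240 kept direction and side of the threshold, 41 lost a call, 37 gained one and 42, none of them called, changed sign; causes were not tested. Members called moved as follows. For IL1A against TNF, edgeR and DESeq2 gave 5 each, and 6 without mice 60780 and 60215, against 0. For the departure from additive effects, edgeR gave 5, DESeq2 6, the fit without mouse 60637 4, and that without mice 60780 and 60215 7, against 2. For TNF at day 2, leaving out 1 mouse gave 0 to 2, and leaving out mouse 60584 gave 2. For Sarm1-/- against WT in IL1A+TNF, batch 2 alone and edgeR gave 0, and leaving out 1 mouse 0 to 1; for genotype by treatment, batch 2 alone and edgeR gave 0, and leaving out 1 mouse 0 to 3. Without mice 61924 and 61926, both counts were 0, and IL1A+TNF in Sarm1-/- gave 0 against 9. With mouse as a fixed replicate block, IL1A against PBS gave 5 against 10; in the other comparisons the paired fits with and without the replicate block moved the members called by less than 1.5 times. The fits that leave out named mice were chosen after seeing the data.

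Sign changes, log2: for TNF at day 14, Tapbp without the sex term -0.011, and Psme1 0.010 (edgeR), 0.0089 (DESeq2) and 0.0031 (no replicate block). For TNF at day 14 minus day 2, Tap2 0.0051 (no sex term) and 0.0063 (edgeR), Psmb10 0.0098 (no sex term), Tap1 0.21 (edgeR) and 0.20 (DESeq2). For day 35 minus day 2, Nlrc5 0.12 (edgeR), 0.10 (DESeq2) and 0.017 (no replicate block), and Erap1 -0.0041 (DESeq2). With the fixed replicate block, Psme1 at day 2 was -0.00093, H2-K1, Tapbp and Erap1 at day 14 were -0.014, -0.043 and -0.0011, and Psmb9 at day 35 was -0.045. Without mouse 60584 the departure from additive effects was -0.087 for H2-K1 and -0.14 for B2m. Leaving out 1 mouse gave, for TNF at day 2, Psme1 -0.036 to 0.080 and Psmb10 -0.0019 to 0.13; at day 14, Tapbp -0.049 to 0.036 and Psme1 -0.10 to 0.022; at day 35, Psmb9 -0.092 to 0.087, Tapbp -0.037 to 0.012, Psme1 -0.013 to 0.083 and Psmb10 -0.069 to 0.018. It gave Nlrc5 -0.14 to 0.46 for Sarm1-/- against WT in PBS and Psme1 -0.14 to 0.011 for IL1A+TNF in Sarm1-/-.

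Over all genes, TNF at day 2 gave 128 calls, 242 in edgeR, 268 in DESeq2, 21 with the fixed replicate block and 10 to 453 without 1 mouse. The departure from additive effects gave 703, 422 without the filter, 1118 in DESeq2, 1093 without mouse 60637 and 1591 without mice 60780 and 60215. IL1A against PBS gave 4193, and 2116 with the fixed block. IL1A+TNF against IL1A gave 1968, and 3059 without mice 60780 and 60215, and IL1A against TNF 1774, 912 without mouse 60637 and 935 without mouse 60584. WT of batch 2 gave 4110, and 2286 with the fixed block, TNF at day 35 gave 0, and 2 with it, and day 14 minus day 2 gave 0, and 3 in DESeq2. Sarm1-/- against WT gave 8 in PBS and 2 in batch 2 alone, and in IL1A+TNF 2988, 1195 in edgeR, 1595 in DESeq2, 129 in batch 2 alone and 271 to 3970 without 1 mouse. Genotype by treatment gave 1763, 181 in edgeR, 430 in DESeq2, 0 in batch 2 alone and 0 to 2739 without 1 mouse, and IL1A+TNF in Sarm1-/- 8768, and 5675 to 9546. Without mice 61924 and 61926 these 3 gave 154, 0 and 995.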

Other observations

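The fellow eyes of batch 2 stood in different orders in the genotypes. Among Sarm1-/- mice, 61561 and 61564 had the highest Tap1 levels in their PBS retinas (18 and 19.8 CPM) and lay among the lowest in their IL1A+TNF retinas (13.7 and 27.3 CPM), while mouse 61765 had the lowest PBS retina (5.60 CPM) and the highest IL1A+TNF retina (129 CPM). Nlrc5 gave the same picture, at 10.45 and 9.15 CPM in the PBS and IL1A+TNF retinas of mouse 61561 and at 2.26 and 80.9 CPM in those of mouse 61765. Among WT mice, 61927 was lowest in both eyes for Tap1 (5.46 and 18.3 CPM) and 62224 highest in both (11.9 and 136 CPM). These are values of 6 and 5 pairs of eyes, singled out after they were seen, and no relation between fellow eyes was tested.

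The highest Psme1 level among the PBS retinas of day 2 was that of mouse 60780, the mouse whose IL1A+TNF retina was lowest for Tap1 and Nlrc5, while the highest PBS level of 8 other members was that of mouse 60641.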
